A study of Mus musculus with 6 samples.

Results

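The genes described here are 39 members of the nuclear receptor superfamily, measured in mouse liver. They were chosen by name, as the rows of the deposited tables whose gene symbol is 1 of 39 receptor symbols, and 39 of 39 were found among the 55487 genes listed. Classes were separated from textbook knowledge. There were 3 retinoid X receptors (Rxra, Rxrb and Rxrg) and 17 receptors that can pair with RXR, called RXR partners below. The 19 other receptors are called non-partners, which is the name of a list. Whether any of the non-partners can also pair with RXR was not checked. The livers came from male C57/Bl6J mice fed HFD, a high-fat diet, and gave 6 libraries in 2 groups of 3. The controls carry the genotype label Alb cre +/-, a Cre recombinase transgene driven by the hepatocyte promoter of albumin. The mutants are labelled RXRa f/f Alb cre+/-, so the same transgene is present in both groups, while the design text calls them Rxra S65A mutants. The titles use WT for the controls and Cre for the mutants, and the sources used here give no ages. Nothing in the labels states that the libraries come from different animals, so the p-values cover only the spread between libraries, which may be technical.

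Nuclear receptors are transcription factors that bind DNA through a conserved zinc-finger domain, and many are switched on by small lipophilic ligands such as fatty acids, oxysterols, bile acids, retinoids and steroid or thyroid hormones. RXR is the common dimer partner of the receptors for fatty acids (PPARs), oxysterols (LXRs), bile acids (FXR), foreign compounds (CAR and PXR), retinoic acid (RARs) and thyroid hormone. Others, such as HNF4α and the steroid receptors, act as homodimers, and a few act as monomers. In liver these receptors govern lipid, glucose, bile acid and drug metabolism.

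The targeted gene, Rxra, lies on the plus strand of chromosome 2 (chr2:27676440-27762957, mm10). The substitution named in the design text, S65A, was set against the annotated transcripts in GENCODE mouse release 21, since it defines the mutant group. Codon 65 encoded glycine, not serine, in each of the 5 annotated Rxra coding transcripts with a complete start. In the form of 467 codons the codon is GGC, at chr2:27737463-27737465 (exon 2 of 10 in transcript Rxra-201), and the nearest serine codons are numbers 61 and 71. In the form of 439 codons it is GGG, at chr2:27737547-27737549, and the nearest serine codons are numbers 55 and 68. The coding sequence around codon 65 is shown for both forms, on the coding strand, with codon 65 in capitals; the second stretch crosses an exon junction.
Rxra-201: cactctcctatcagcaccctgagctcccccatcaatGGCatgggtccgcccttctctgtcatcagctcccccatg
Rxra-202: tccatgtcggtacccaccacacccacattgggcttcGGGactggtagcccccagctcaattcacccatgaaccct
Which residue the design text numbers as 65 is not settled by these sequences, and the protein form encoded by the transcripts is not visible in values summed per gene.

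Library totals ranged from 35847386 to 43162557 estimated counts. A TPM (a share of all transcripts, corrected for transcript length) of at least 1 was reached by 11948 to 11998 genes in the controls and 10567 to 10863 genes in the mutants. Of 14286 genes tested, 949 were higher and 974 lower in the mutants at an adjusted p under 0.05 by edgeR's quasi-likelihood test. That split of 49.3% higher holds for TMM scaling, which sets the typical gene equal in both groups. With library totals instead, the typical gene stood at a log2 fold change of -0.40 (median) and 6.11% of the calls were higher, and in limma on log2(TPM + 1) these values were -0.48 and 2.65%. Changes below are therefore relative to the typical gene unless another scaling is named.

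On the length-corrected TPM scale, the receptors of the control livers ranged from a mean of 171 TPM for Hnf4a to near 0 for Vdr. The highest were Hnf4a, the hepatocyte identity factor, Rxra itself, Nr1i3 (CAR, a sensor of foreign compounds), Ppara, the fatty acid sensor that drives fat oxidation, and Nr1h4 (FXR, the bile acid receptor). Hnf4a measured 157, 178 and 179 TPM in control replicates 1 to 3, and 199, 153 and 191 TPM in mutant replicates 1 to 3. Rxra measured 181, 170 and 152 TPM in the controls and 174, 119 and 148 TPM in the mutants. Libraries of the groups overlapped for both on this scale. Nr1i3 measured 134, 143 and 136 TPM in the controls and 89.6, 109 and 117 TPM in the mutants. Ppara measured 126, 96.5 and 119 TPM against 91.7, 92.8 and 85.5 TPM, and Nr1h4 measured 99.3, 101 and 95.5 TPM against 64.3, 65.0 and 66.7 TPM. For these last receptors the mutant libraries all lay below the controls in TPM, which is not corrected for the downward shift of the typical gene.

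A mean of at least 1 TPM was reached by 33 of the 39 receptors in the controls and 29 in the mutants, and a mean of at least 10 TPM by 22 and 17. Means of at least 100 TPM were found for 4 receptors in the controls and 3 in the mutants. Among all genes, 11948 to 11998 reached 1 TPM in single control libraries and 10567 to 10863 in single mutant libraries. These counts share the downward shift of the typical gene in TPM. When the receptors were ordered by control mean, the libraries of neighbours overlapped in 25 of 38 neighbouring pairs, Hnf4a and Rxra among them, so much of the order is not resolved. Ranks 1 to 9 went to the same receptors in the same order in both groups, ending with Nr2f6, Nr1h3, Nr1d1 and Nr0b2. Pparg moved from rank 16 to rank 22, and Nr1i2 from 12 to 10. At the bottom stood Nr1h5 (an FXR relative), Nr2f1, Nr4a2, Hnf4g, Nr4a3 and Vdr, the vitamin D receptor, which had 6 estimated counts in the 3 control libraries together and 0 in the 3 mutant libraries. A count of 0 allows up to 3 counts, for counting error only.

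**Figure D1:**
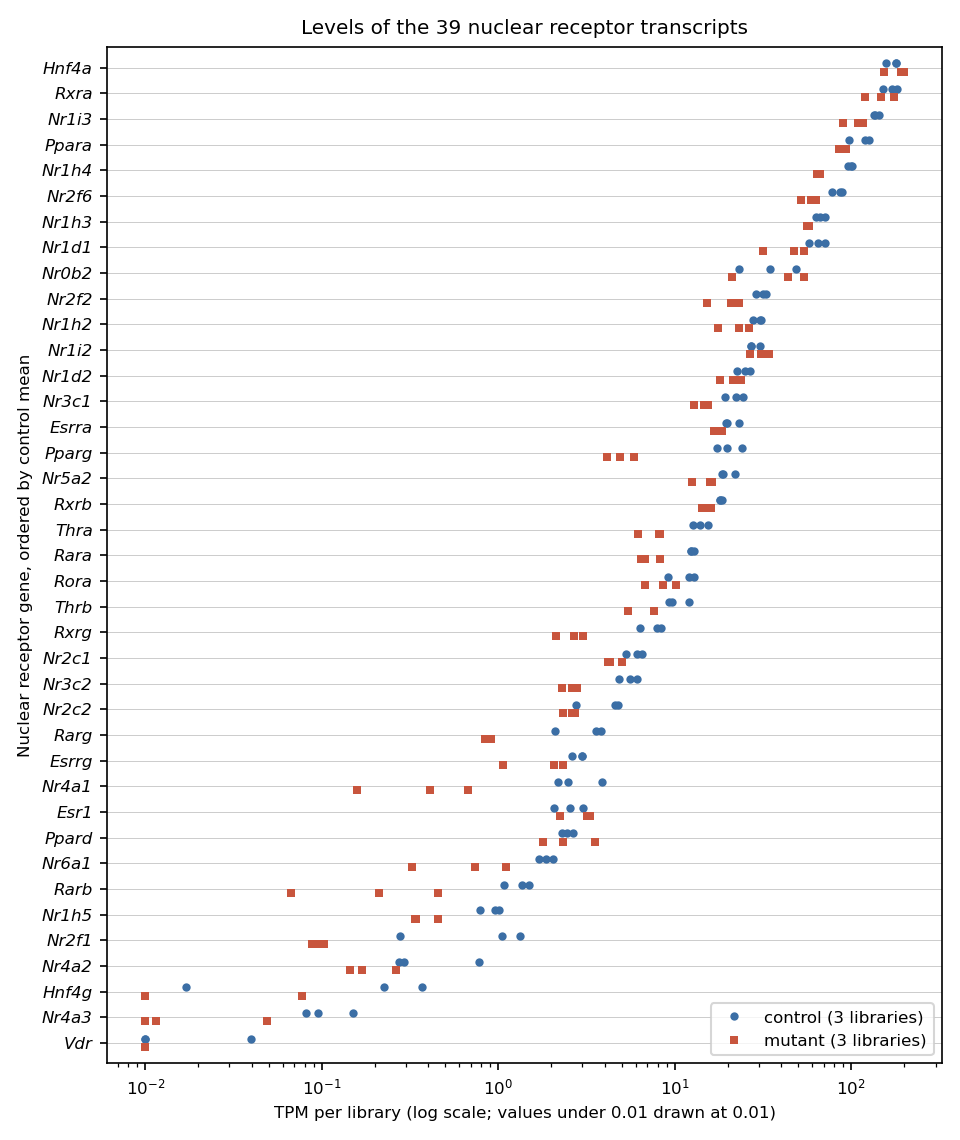
TPM of each of the 39 receptors (log axis) in the 3 control (circles) and 3 mutant libraries (squares), ordered by control mean from top to bottom. Pparg, Rxrg, Rarg, Nr4a1, Rarb, Nr2f1 and Nr4a3 are among the rows where the mutant squares stand left of the circles without overlap, while Hnf4a, Rxra and Nr0b2 overlap. Receptors that were not called, such as Nr1h4, Nr3c1 and Nr2f6, also stand left without overlap. TPM is not corrected for the downward shift of the typical gene.

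Between the groups, 37 of the 39 receptors could be tested, and 10 were called changed. Hnf4a, Nr1i2 (PXR), Nr1h3 (LXRα) and Esr1 (estrogen receptor α) rose, and Pparg, Rarg, Rxrg, Nr4a1, Nr3c2 and Nr2f1 fell. The 10 called are 27% of those tested, against 13.5% of all tested genes. The 4 higher are 10.8%, against 6.64%, and the 6 lower are 16.2%, against 6.82%. In CPM (estimated counts scaled to library size after TMM) control and mutant libraries stood apart without overlap for 22 receptors, 59.5%, against 34.9% of all tested genes. Hnf4g and Vdr were too low to test. Nr2f1 and Nr4a3 passed the filter through the controls alone, so these shares are not shares of the whole superfamily.

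With library totals, 14 receptors were called lower, 37.8% of those tested against 31.5% of all genes. No receptor was called higher there by edgeR (2 had a positive change at an unadjusted p under 0.05), against 2.05% of all genes. DESeq2, with its own scaling, called 13 receptors: 6 higher, with Rxra and Rxrb added to the list above, and 7 lower, with Rarb added. These are 35.1% of the receptors tested, against 19.8% of all genes by DESeq2 (9.46% higher and 10.3% lower).

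**Figure D2:**
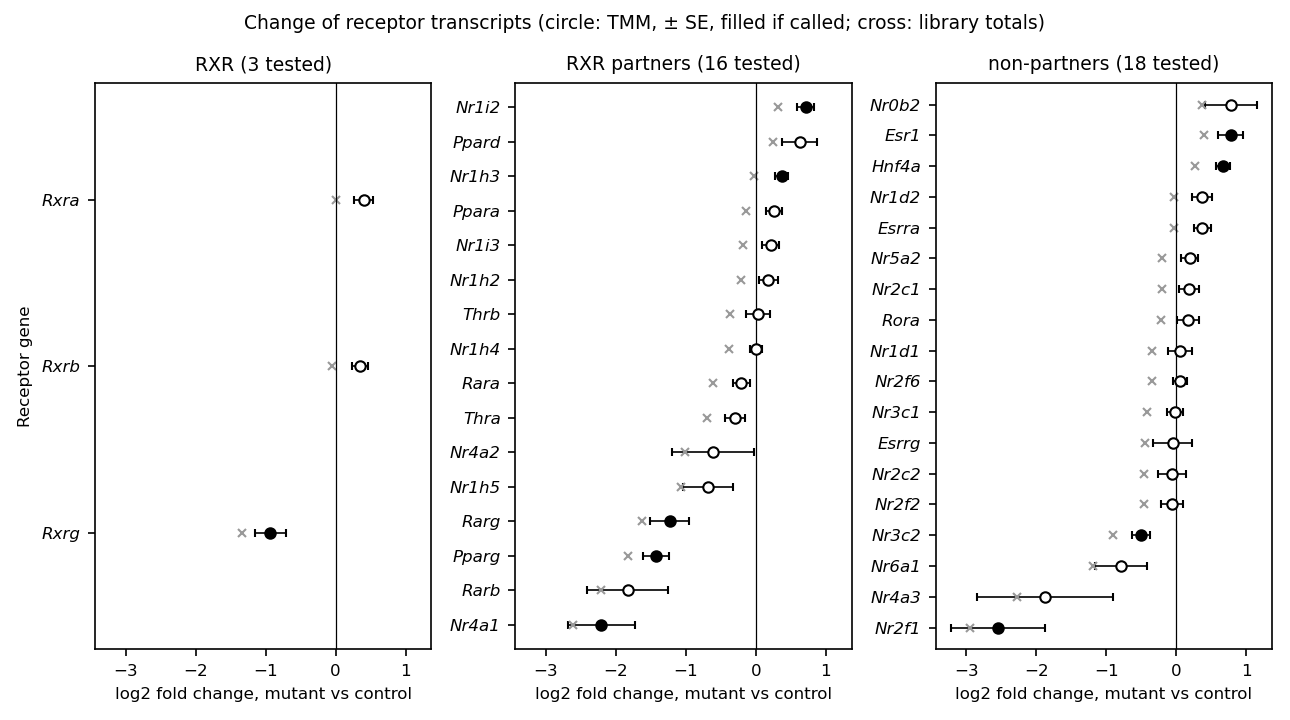
The log2 fold change of the 37 tested receptors (circles with standard error, TMM scaling), filled where called, by class; crosses give the value with library totals. Filled circles stand on both sides of 0 among RXR partners and non-partners, and the crosses lie about 0.4 to the left of the circles.

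Among the RXRs, Rxrg was called lower and Rxra and Rxrb were not called. Rxra measured 501, 471 and 413 CPM in the controls and 699, 522 and 609 CPM in the mutants. The groups did not overlap, but mutant replicate 2 stood near the controls, and the log2 fold change of 0.40 ± 0.13 (standard error, n = 3 per group) missed the threshold (adjusted p = 0.0724 by edgeR). That value lies at the 84.8th percentile of all tested genes, it was 0.01 with library totals and -0.20 in limma on log2(TPM + 1), and without mutant replicate 2 it passed (adjusted p = 0.0388). Rxrb measured 23.5, 23.9 and 22.9 CPM in the controls and 26.9, 31.9 and 30.9 CPM in the mutants, with a log2 fold change of 0.35 ± 0.11 (adjusted p = 0.0692; -0.05 with library totals). Rxrg, the RXR most known from muscle and brain, measured 6.07, 7.51 and 7.83 CPM in the controls and 3.71, 4.55 and 2.96 CPM in the mutants. No library overlapped between the groups, and Rxrg fell by 0.93 ± 0.22 on the log2 scale (adjusted p = 0.0314 by edgeR). That call was lost on leaving out any library other than mutant replicate 2.

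Rxra supplied nearly the whole RXR pool by TPM in both groups. Its share of the summed RXR TPM was 86.7 ± 1.44% among controls and 88.9 ± 2.31% among mutants (mean ± SD, n = 3), with overlapping libraries. With Rxrg lower, Rxra per Rxrg went from 28.4, 21.6 and 18.2 in the controls to 64.7, 39.4 and 70.5 in the mutants.

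Of the PPARs, Pparg fell and Ppara and Ppard were not called. PPARγ is the adipose receptor that drives lipid storage, and its transcript is known to rise in fatty liver. Pparg (chr6:115360951-115490399) measured 19.4, 22.1 and 26.4 CPM in the controls and 7.92, 10.4 and 6.83 CPM in the mutants. Every mutant library lay below every control library, and Pparg fell by 1.43 ± 0.19 on the log2 scale, 2.70-fold (adjusted p = 0.00292 by edgeR). The call held in all 6 fits that left out a library and in each scaling tried. Ppara measured 147, 112 and 136 CPM in the controls and 155, 171 and 148 CPM in the mutants, with a log2 fold change of 0.26 ± 0.12 (adjusted p = 0.195). Ppard, a PPAR expressed in most tissues, had a log2 fold change of 0.63 ± 0.25 (adjusted p = 0.133), and mutant replicate 3, at 10.1 CPM, stood above the other mutants at 6.51 and 5.48 CPM.

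The oxysterol and bile acid receptors gave 1 call, that of Nr1h3. Nr1h3 measured 64.8, 68.6 and 71.7 CPM in the controls and 85.9, 93.7 and 85.4 CPM in the mutants, without overlap. Its log2 fold change of 0.37 ± 0.09 passed edgeR's test (adjusted p = 0.0347), but it passed in 0 of 6 fits that left out a library. The value turned to -0.03 with library totals and -0.22 in limma on log2(TPM + 1). In limma on log2(TPM + 1) with no filter, Nr1h3 was called lower. Nr1h2 (LXRβ) had a log2 fold change of 0.18 ± 0.14 (adjusted p = 0.416). Nr1h4 measured 117, 119 and 111 CPM in the controls and 109.9, 121 and 116 CPM in the mutants, which overlapped, with a log2 fold change of 0.00 ± 0.09 (adjusted p = 0.985). Nr1h5 was near 1 CPM, with 1.37, 1.66 and 1.71 CPM against 1.15, 0.929 and 0.87 CPM, and was not called (adjusted p = 0.247).

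The foreign-compound receptors diverged in their calls. Nr1i2, the receptor PXR that induces Cyp3a genes (chr16:38248323-38294824), measured 43, 43.5 and 47.7 CPM in the controls and 79.4, 77.7 and 63.1 CPM in the mutants. The mutant libraries all lay above the controls, and Nr1i2 rose by 0.71 ± 0.12 on the log2 scale, 1.64-fold (adjusted p = 0.0073 by edgeR). The call held in all 6 fits that left out a library, and the value stayed positive, at 0.32 with library totals and 0.11 in limma on log2(TPM + 1), where neither passed. Nr1i3 measured 161, 171 and 159.9 CPM in the controls and 156, 206 and 208 CPM in the mutants, which overlapped, with a log2 fold change of 0.21 ± 0.12 (adjusted p = 0.299). Tomm40l, on the opposite strand, covers 74.9% of the exon bases of Nr1i3, and the sources used here do not give the strandedness of the libraries, so reads of the pair may not be told apart.

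Rarg was the called member of the retinoic acid receptors. Rarg measured 5.5, 3.25 and 5.82 CPM in the controls and 2.04, 2.23 and 1.93 CPM in the mutants. The groups did not overlap, although control replicate 2 stood closest to the mutants, and Rarg fell by 1.23 ± 0.28 on the log2 scale (adjusted p = 0.027 by edgeR). Leaving out any library other than control replicate 2 ended the call. Rarb, itself a classical target of retinoic acid, measured 2.52, 1.84 and 2.27 CPM in the controls and 0.523, 0.186 and 1.16 CPM in the mutants. These libraries did not overlap either, but the mutants were widely spread, and the log2 fold change of -1.83 ± 0.58 did not pass (adjusted p = 0.0757; 0.0132 by DESeq2). Top2b lies over 34.1% of the Rarb exon bases on the opposite strand. Its control mean was 11.7 TPM, against 1.31 TPM for Rarb. With strandedness not given, reads of Top2b and Rarb may not be told apart. Rara, the most abundant RAR by TPM, measured 21.9, 21.3 and 20.7 CPM against 20.5, 17.4 and 17.2 CPM, with a log2 fold change of -0.21 ± 0.12 (adjusted p = 0.269).

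The thyroid hormone receptors were not called. Thra measured 18.6, 15.3 and 16.4 CPM in the controls and 14.3, 11.7 and 14.7 CPM in the mutants, with a log2 fold change of -0.30 ± 0.14 (adjusted p = 0.195). Thrb, the main thyroid receptor of liver by protein, measured 28.8, 27.8 and 35.3 CPM against 33.1, 36.3 and 24.2 CPM, with overlap. Of the NR4A receptors, which are immediate-early genes induced by stress and fasting signals, Nr4a1 measured 3.22, 3.65 and 5.55 CPM in the controls and 0.863, 0.372 and 1.45 CPM in the mutants. All mutant libraries lay below the controls, and Nr4a1 fell by 2.21 ± 0.48 on the log2 scale, 4.63-fold (adjusted p = 0.0209 by edgeR). That call was lost without control replicate 2, control replicate 3 or mutant replicate 1. Nr4a2 had overlapping libraries and a log2 fold change of -0.61 ± 0.59 (adjusted p = 0.544), and Nr4a3, counted with the non-partners, had one of -1.88 ± 0.97 (adjusted p = 0.242).

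**Figure D3:**
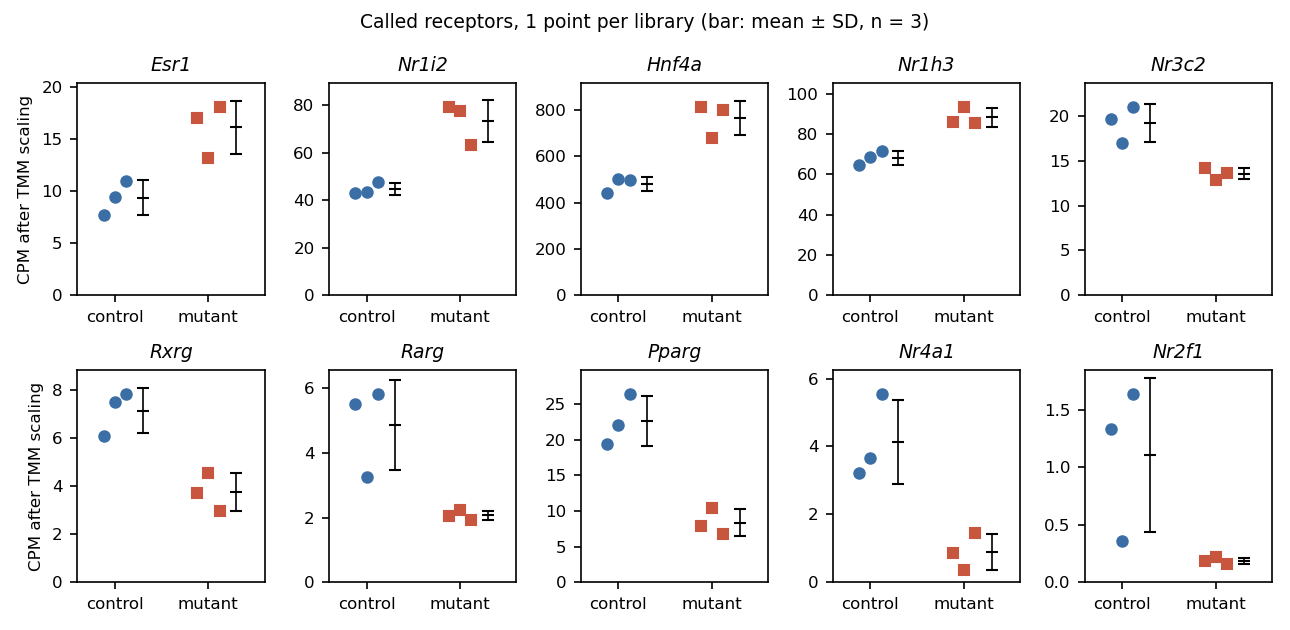
CPM after TMM scaling of the 10 called receptors, 1 point per library, with mean ± SD (n = 3 per group); each vertical axis starts at 0. In each panel the 3 control and 3 mutant points do not overlap; in Nr2f1 and Rarg control replicate 2 is the control nearest to the mutants.

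Hnf4a was the called receptor with the highest level. HNF4α keeps hepatocytes differentiated and drives apolipoprotein and clotting factor genes. Hnf4a (chr2:163506808-163572910) measured 444, 502 and 497 CPM in the controls and 816, 681 and 800 CPM in the mutants. The groups did not overlap, and Hnf4a rose by 0.67 ± 0.10 on the log2 scale, 1.59-fold (adjusted p = 0.00597 by edgeR). The call held in all 6 fits that left out a library; the value was 0.27 with library totals and 0.07 in limma on log2(TPM + 1), where neither passed. Hnf4g, its intestinal relative, was near 0, with 36.3 estimated counts in the control libraries together and 5.19 in the mutant libraries.

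Of the steroid receptors, Esr1 rose, Nr3c2 fell and Nr3c1 was not called. Esr1 measured 7.68, 9.44 and 11 CPM in the controls and 17.0, 13.2 and 18.1 CPM in the mutants, without overlap. It rose by 0.78 ± 0.18 on the log2 scale (adjusted p = 0.0278 by edgeR), with 0.39 at library totals and 0.14 in limma on log2(TPM + 1), and the call held without control replicate 3 and without mutant replicate 2 but not without any other single library. Nr3c2, the mineralocorticoid receptor, measured 19.7, 17.0 and 21.1 CPM in the controls and 14.2, 12.9 and 13.7 CPM in the mutants. The mutants were close together below the controls, and Nr3c2 fell by 0.50 ± 0.13 on the log2 scale (adjusted p = 0.036 by edgeR), a call that held only without control replicate 2 among the 6 fits that left out a library. Nr3c1, the glucocorticoid receptor GR, measured 76.2, 66.7 and 82.9 CPM against 77.5, 70.0 and 74.8 CPM, which overlapped, with a log2 fold change of -0.02 ± 0.11 (adjusted p = 0.915).

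The COUP-TF family of orphan receptors gave 1 call, at a very low level. Nr2f1 measured 1.33, 0.359 and 1.64 CPM in the controls and 0.183, 0.217 and 0.161 CPM in the mutants. Control replicate 2 stood near the mutants, and the log2 fold change of -2.55 ± 0.67 passed edgeR's test (adjusted p = 0.0408), as it did without control replicate 2 but not without any other single library. The mutant livers held 18.5 estimated counts of Nr2f1 in all, so its fold depends on few counts. Nr2f1 passed the filter through the controls alone, and it was not called with a CPM filter. Nr2f2, found in stellate cells and endothelium as well as other cells, measured 32.8, 35.9 and 36.9 CPM against 38, 37.3 and 25.7 CPM, and Nr2f6 had a log2 fold change of 0.05 ± 0.10. Ocel1 covers 54.4% of the Nr2f6 exon bases on the opposite strand.

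The receptors of the circadian clock were not called. Nr1d1 (REV-ERBα, a repressor within the clock) measured 108, 118 and 93.9 CPM in the controls and 114, 82.8 and 134 CPM in the mutants, and the libraries overlapped. Nr1d2 (REV-ERBβ) had a log2 fold change of 0.37 ± 0.14 (adjusted p = 0.114), and Rora, the activator that competes with them, had one of 0.17 ± 0.16 (adjusted p = 0.517). Nr0b2 (SHP), a repressor without a DNA-binding domain that FXR induces, measured 13.3, 19.9 and 27.6 CPM in the controls and 17.7, 49.5 and 37.3 CPM in the mutants. Its libraries overlapped and its spread was wide, with a log2 fold change of 0.78 ± 0.37 (adjusted p = 0.208). The estrogen-related receptor Esrra, a driver of mitochondrial genes, had a log2 fold change of 0.37 ± 0.12 (adjusted p = 0.0832; -0.03 with library totals). Nr5a2 (LRH-1), Nr2c1, Nr2c2, Esrrg and Nr6a1 were not called, with log2 fold changes between -0.79 for Nr6a1 and 0.19 for Nr5a2. Mrps25, at a control mean of 15.1 TPM against 4.04 TPM for Nr2c2, covers 30.7% of the Nr2c2 exon bases on the opposite strand.

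Called receptors were found among both RXR partners and non-partners. Of all tested genes 13.5% were called, 6.64% higher and 6.82% lower. Of 16 partners tested, 5 were called (31.2%), 2 higher and 3 lower, with a median log2 fold change of -0.10. Of 18 non-partners tested, 4 were called (22.2%), 2 higher and 2 lower, with a median of 0.05. The median of all tested genes was 0.00. Among the lower non-partners, Nr2f1 passed the filter through the controls alone. With a CPM filter 3 non-partners were called, and Nr2f1 was not among them. Leaving out the NR4A partners, 4 of 14 partners were called and the median was 0.01. With library totals the medians were -0.50 for partners and -0.35 for non-partners, against -0.40 for all genes. These counts and medians describe the lists, and the difference between the classes was not tested.

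By summed TPM, partners made up 43.6 ± 0.898% of the superfamily's transcripts in the controls and 40.2 ± 2.36% in the mutants, with overlapping libraries. Non-partners made up 40.8 ± 1.73% and 43.3 ± 0.813%, without overlap, and RXRs 15.5 ± 1.34% and 16.4 ± 1.86%, with overlap (SD, n = 3 each). Partner TPM per RXR TPM was 2.66, 2.69 and 3.11 in the controls and 2.08, 2.92 and 2.44 in the mutants, with overlap.

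Ratios of 2 receptors within a library do not depend on how libraries are scaled. The pairs were chosen after their values were seen, so they are descriptions without a test; with 3 libraries against 3, a two-sided exact permutation test cannot go below p = 0.1. Ppara per Pparg was 7.31, 4.89 and 4.95 in the controls and 18.8, 15.8 and 20.8 in the mutants. Rara per Rarg was 3.59, 5.91 and 3.22 against 9.11, 7.03 and 8.05. In each pair the mutants lay above the controls without overlap. Nr1i3 per Nr1i2 was 5, 5.26 and 4.47 against 2.62, 3.54 and 4.41, so mutant replicate 3 came close to control replicate 3. The tightest ratio was that of the corticosteroid receptors: Nr3c1 per Nr3c2 was 3.97, 4.01 and 4.02 in the controls and 5.57, 5.56 and 5.58 in the mutants. Hnf4a per Nr2f6 was 2.03, 2 and 2.08 against 3.18, 2.95 and 3.24, and Nr1h4 per Nr1h3 was 1.58, 1.52 and 1.35 against 1.12, 1.13 and 1.19, both without overlap. Ratios of Nr1h3 to Nr1h2, of Thrb to Thra and of Nr1d1 to Nr1d2 overlapped between the groups.

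**Figure D4:**
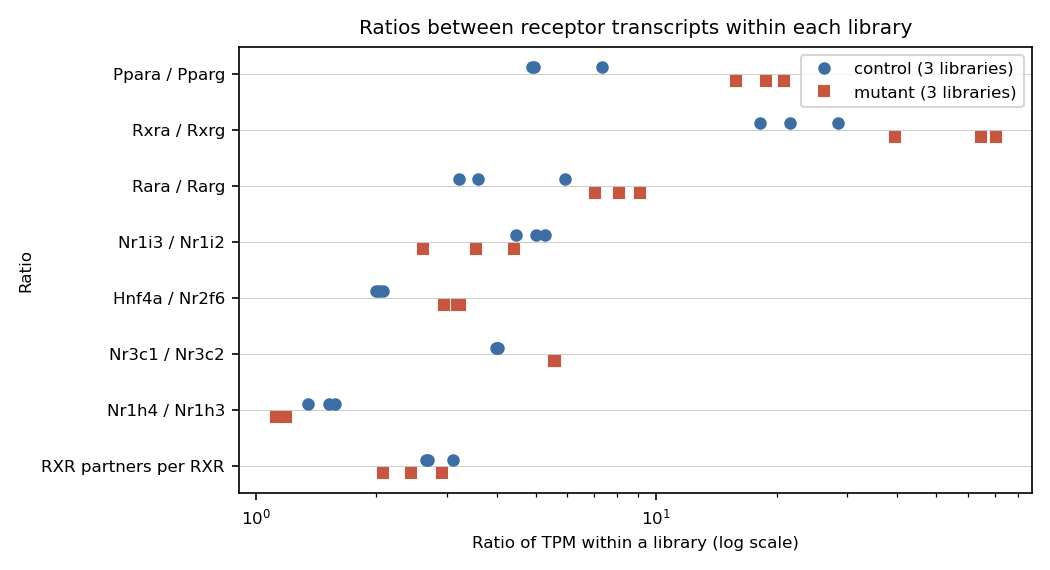
Ratio of the TPM of 2 receptors, or of summed partner TPM to RXR TPM, within each library (log axis), for 3 control (circles) and 3 mutant libraries (squares). The first 7 ratios do not overlap between groups, whereas partners per RXR, in the bottom row, overlap.

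RXR dimers and several orphan receptors bind repeats of the half-site AGGTCA, so the promoters of the called receptors were searched for it. The window was 300 bases, from 250 before to 50 after each RefSeq start (GRCm38.p6), on both strands, and 36 of the 39 members matched, with 55 promoters. The half-site was found in 11 of 55 member promoters (20%), against 16.3% of all 32851 promoters. Direct repeats of AGGTCA with any 1 base between them (DR1) or any 4 bases between them (DR4), which contain the half-site, were found in 0 of 55, against 0.0396% and 0.0152% of all promoters. These repeats matched only 13 and 5 of the 32851 promoters, so 55 promoters are too few to show a difference. By receptor, 10 of the 36 members had a half-site. These were Pparg (at 2 of its starts), Rarg and Rxrg, which fell, and Nr1d2, Nr1h4, Nr5a2, Nr6a1, Rara, Rxra and Thrb, which were not called. None of the 4 that rose had one, but the number of starts searched differed between receptors, and a link to direction was not tested. The stretches below hold the half-site of the called receptors in capitals, as AGGTCA or, on the other strand, TGACCT. The half-site begins at position -28 from the start for Pparg, -225 for Rarg and -88 for Rxrg; the windows they come from are chr6:115360894-115361193 (plus strand), chr15:102257473-102257772 (minus strand) and chr1:167618015-167618314 (plus strand).
Pparg: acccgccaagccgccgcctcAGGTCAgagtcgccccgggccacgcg
Rarg: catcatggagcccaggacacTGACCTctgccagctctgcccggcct
Rxrg: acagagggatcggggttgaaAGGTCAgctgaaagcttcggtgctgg
A match describes these letters and is not a bound site.

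Genes that the receptors are known to regulate were listed by receptor and read from the same fit. The lists were chosen with earlier results of these data known, so their counts are descriptions and not independent evidence about the receptors. The lists share Nr0b2, Rarb and Per1 with the members or with each other. The most uniform was the PPARγ list, in which 6 of 6 tested genes fell, with a median log2 fold change of -2.49. Of all tested genes 6.82% fell and 6.64% rose. Cidea passed the filter through the controls alone, and Adipoq was too low to test. Cd36, a fatty acid uptake receptor, measured 285, 306 and 352 CPM in the controls and 24.3, 45.1 and 37.7 CPM in the mutants, and fell by 3.14 ± 0.22 on the log2 scale (adjusted p = 0.00025 by edgeR). The lipid droplet protein gene Plin4 went from 72.2 ± 18.2 to 13.3 ± 3.32 CPM and Mogat1, of triglyceride synthesis, from 8.31 ± 1.61 to 1.41 ± 0.367 CPM (SD, n = 3), and both fell (adjusted p = 0.00089 and 0.00107).

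Of the LXR list a part fell, while Nr1h3 rose under TMM scaling (and turned to -0.03 with library totals) and Nr1h2 was not called. Of 10 tested LXR targets 6 fell and 0 rose, against 6.82% and 6.64% of all tested genes. Their median log2 fold change was -0.52. Scd1, which desaturates fatty acids, measured 9098, 7285 and 6911 CPM in the controls and 1744, 1187 and 624 CPM in the mutants, and fell by 2.71 ± 0.33 on the log2 scale (adjusted p = 0.00216 by edgeR). Pltp, a phospholipid transfer protein, went from 155 ± 42.7 to 23.7 ± 4.71 CPM. Arl4c fell by 1.85 ± 0.29 and Srebf1, the master regulator of fatty acid synthesis, fell by 0.61 ± 0.11 on the log2 scale (adjusted p = 0.00618 and 0.0115).

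The PPARα list moved in both directions. Of 14 tested, 6 rose and 2 fell, against 6.64% and 6.82% of all tested genes, with a median log2 fold change of 0.31. With library totals 4 rose and 5 fell, against 2.05% and 31.5% of all tested genes. Cyp4a10, an omega-oxidation enzyme, measured 1411, 1200.4 and 930 CPM in the controls and 3029, 3273 and 3081 CPM in the mutants, and rose by 1.41 ± 0.15 on the log2 scale (adjusted p = 0.00112 by edgeR). Ehhadh, of peroxisomal fat oxidation, rose by 1.29 ± 0.14 and Cyp4a14 by 1.06 ± 0.14, and these 3 stayed positive in each scaling tried. Plin2, which coats lipid droplets, fell by 0.70 ± 0.11 (adjusted p = 0.0053).

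For PXR and CAR, targets differed in direction while Nr1i2 rose. Of 10 tested, 2 rose and 2 fell, against 6.64% and 6.82% of all tested genes. Cyp3a11, the classical PXR target, measured 1029, 809 and 962 CPM in the controls and 60.5, 179 and 91.8 CPM in the mutants, and fell by 3.08 ± 0.36 on the log2 scale (adjusted p = 0.00171 by edgeR). Abcc3, an exporter, went from 464 ± 32.1 to 241 ± 23.4 CPM and fell (adjusted p = 0.00131). Por, which supplies electrons to cytochromes P450, rose from 227 ± 51.9 to 719 ± 127 CPM (adjusted p = 0.00164). Ces2a rose by 0.65 ± 0.14 (adjusted p = 0.0208), and was 0.06 in limma on log2(TPM + 1).

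Of 10 tested GR targets 6 rose, 0 fell and 4 were not called, while Nr3c1 was not called either. Of all tested genes 6.64% rose and 6.82% fell. The median log2 fold change of the 10 GR targets was 1.63. With library totals 6 of the 10 rose and 2 fell, against 2.05% and 31.5% of all tested genes. Fkbp5, a feedback co-chaperone of GR, measured 24.1, 19.8 and 16.3 CPM in the controls and 148, 73.7 and 109 CPM in the mutants, and rose by 2.46 ± 0.26 on the log2 scale (adjusted p = 0.00103 by edgeR). Zbtb16, a zinc-finger repressor, measured 1.98, 3.09 and 2.41 CPM in the controls and 39.8, 12.9 and 37.4 CPM in the mutants, and rose by 3.59 ± 0.42 (adjusted p = 0.00171). Pck1, the gluconeogenic enzyme, rose by 1.88 ± 0.22 and the clock gene Per1 by 1.61 ± 0.24 (adjusted p = 0.00171 and 0.00489). In these 4 genes mutant replicate 2 was the lowest mutant, still above the controls.

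Of 9 HNF4A targets tested, 3 rose and 0 fell, against 6.64% and 6.82% of all tested genes. Their median log2 fold change was 0.17. With library totals 0 rose and 3 fell, against 2.05% and 31.5% of all tested genes. Apoc3 rose from 989 ± 94.1 to 1423 ± 106 CPM, Otc, of the urea cycle, from 229.6 ± 39.2 to 375 ± 57.1 CPM, and Cyp27a1, of bile acid synthesis, from 286 ± 15.1 to 372 ± 39.6 CPM (adjusted p = 0.0169, 0.0221 and 0.0442 by edgeR). Cyp27a1 turned to -0.01 with library totals, and Apoc3 and Cyp27a1 to -0.07 and -0.22 in limma on log2(TPM + 1). Among 8 FXR targets tested 1 rose (Fetub, log2 fold change 0.65 ± 0.09, adjusted p = 0.00413; 0.05 in limma on log2(TPM + 1)) and 0 fell, which is 12.5% called, near the 13.5% of all genes. Of 5 RAR targets tested, Tgm2 fell by 1.10 ± 0.11 on the log2 scale (adjusted p = 0.00097 by edgeR), and 0 rose. That is 20% called, against 13.5% of all tested genes. Of 6 thyroid receptor targets tested, Klf9 rose by 0.84 ± 0.13 (adjusted p = 0.00561 by edgeR). Hr and Me1 fell by 1.49 ± 0.37 and 0.69 ± 0.18 (adjusted p = 0.0341 and 0.0394 by edgeR). These make 50% called, against 13.5% of all tested genes.

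For the clock, none of the 5 REV-ERB targets tested was called by edgeR (0 at an unadjusted p under 0.05, 0 by DESeq2). Of 9 clock output genes tested 3 rose, against 6.64% of all tested genes. These were Per1, Ciart by 2.45 ± 0.45 and Tef by 0.60 ± 0.15 on the log2 scale, the last being 0.02 in limma on log2(TPM + 1). The sources used here do not give the time of day of collection. Outside the 39, 10 further receptors were looked up, of which 3 could be tested and Esr2, Rorb, Nr2e1, Nr2e3 and Nr0b1 were at 0 in all 6 libraries.

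**Figure D5:**
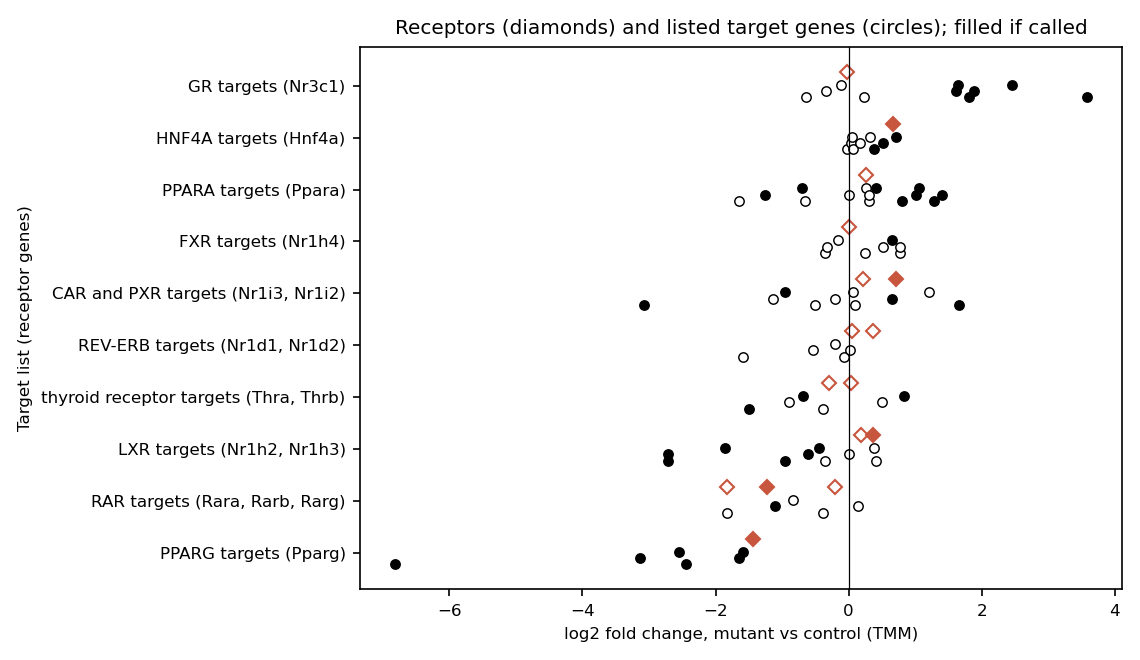
The log2 fold change (TMM scaling) of tested target genes (circles) and of the receptor genes named at left (diamonds), filled where called. PPARG targets and Pparg lie left of 0, the 6 called GR targets lie right of 0 with Nr3c1 at -0.02, and the LXR list lies mostly left of 0 with Nr1h2 and Nr1h3 to its right.

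All tested markers of stellate cells (8), Kupffer cells (6), monocyte-derived macrophages (7) and sinusoidal endothelium (7) had log2 fold changes below 0. The medians were -0.98, -0.79, -1.31 and -0.66, against 0.00 for all tested genes. Of all tested genes 6.64% were called higher and 6.82% lower. Bulk values cannot tell fewer cells of a type from less RNA per cell. Of 8 stellate cell markers 6 fell and 0 rose, and their summed level was 346 to 406 CPM in the controls and 176 to 226 CPM in the mutants. Kupffer cell markers summed to 180.0 to 249.9 CPM and 79.1 to 162 CPM, with 1 of 6 lower, and monocyte-derived macrophage markers to 33.5 to 43 CPM and 17.1 to 20.3 CPM, with 4 of 7 lower. Sinusoidal endothelium markers summed to 107 to 211 CPM and 85.1 to 135 CPM, with 2 of 7 lower. Of 6 cholangiocyte markers 1 rose and 1 fell, and of 6 lymphocyte markers tested 0 were called by edgeR (0 at an unadjusted p under 0.05, 0 by DESeq2). The part of these cells in the fall of Pparg, Rarg, Rxrg, Nr4a1, Nr3c2 and Nr2f1 was not tested.

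Hepatocyte markers summed to 74534 to 87493 CPM in the controls and 81755 to 90393 CPM in the mutants, and 2 of 6 rose (Ahsg and Apoa1; 0.04 and -0.07 in limma on log2(TPM + 1)). Of all tested genes 6.64% rose under TMM scaling. With library totals 0 of the 6 hepatocyte markers rose and 1 fell, against 2.05% and 31.5% of all tested genes. Of 5 adipocyte markers only Cfd could be tested, and it passed the filter through the controls alone. Cfd measured 23.6, 9.5 and 9.96 CPM in the controls and 0.131, 0.0619 and 0.129 CPM in the mutants. The 3 mutant libraries together held 11 estimated counts of Cfd. Lep was at 0 in every library, and Adipoq, Plin1 and Retn had at most 4.99 estimated counts over a group. Acta1, Myh4, Ckm, Prss1 and Pnlip, markers of muscle and pancreas, were at 0 in all 6 libraries.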

How the data were processed

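Poly(A)-enriched liver RNA was sequenced as paired reads of 150 bases, per the labels' protocols; cutadapt, STAR and mm10 are named in the submitters' processing notes, while the sources used here do not give the counting program, annotation or strandedness. The authors deposited a table of estimated counts and a table of TPM for the 6 libraries. No nonzero estimated count was whole within 1e-06, and counts per TPM followed a gene factor times a library factor (largest relative deviation 5.7e-10 over 10983 genes), so the deposited estimated counts are rescaled TPM, and counting error is approximate. Columns were matched by sample title, and no pair of libraries agreed within sampling noise (lowest chi-square per gene, 47.7).

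Estimated counts were rounded and tested in edgeR 4.0.16 (R 4.3.3): filterByExpr, TMM, quasi-likelihood F-test on group, Benjamini-Hochberg over 14286 genes, call at adjusted p under 0.05. Alternatives were RLE size factors, library totals with and without the Mup genes, other filters, DESeq2 1.42.0, a replicate block, each library left out, and limma 3.58.1 on log2(TPM + 1) or log2(TPM + 0.1). The procedure was tested on simulated data. There edgeR recovered 58 of 98 genes changed 2-fold and 71 of 102 changed 4-fold, with 6 false calls among 135. A gene that was not called may therefore still have changed. Coordinates are from GENCODE mouse release 21, which holds 99.4% of the gene IDs.

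The members, the 12 lists of targets and other receptors and the 9 marker lists were chosen with earlier results of these data known. Named genes were the 39 members, up to 4 tested genes of each other list with the smallest p, and defining cell type markers at 0; the adipocyte markers Adipoq, Plin1 and Retn were named after their values were seen. No protein table was used. The result of 1 listed gene outside the members is not reported here.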

Additional observations from a re-analysis of the deposited data

How the results depend on the processing

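RLE size factors changed no count of called receptors. With library totals, library totals without Mup genes, and limma on log2(TPM + 1), on log2(TPM + 0.1) and on log2(TPM + 1) with no filter, in that order, 0, 2, 0, 0 and 0 receptors were called higher (4 by TMM) and 14, 9, 19, 17 and 18 lower (6 by TMM). Genes called were 4794, 2373, 7521, 7272 and 7159 (1923 by TMM), of which 6.11%, 17.1%, 2.65%, 2.57% and 2.57% were higher (49.3% by TMM). RXR partners called were 8, 7, 9, 9 and 10 (5), non-partners 5, 3, 9, 7 and 6 (4). The median log2 fold change of partners was -0.50, -0.31, -0.55, -0.59 and -0.48 (-0.10), and of non-partners -0.35, -0.16, -0.43, -0.48 and -0.39 (0.05), where all genes had -0.40, -0.21, -0.48, -0.55 and -0.24. Partners had -0.21 with no filter and -0.01 with a CPM filter, and non-partners 0.10 with the CPM filter. Nr1h3 reversed to -0.03 with library totals and to -0.22, -0.23 and -0.22 in the 3 limma fits. In the limma fit with no filter Nr1h3 was called lower.

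Leaving out 1 library gave 882 to 1514 genes, 2 to 4 receptors higher, 1 to 4 lower, 2 to 4 partners, 1 to 3 non-partners, and medians of -0.16 to 0.00 for partners and 0.02 to 0.10 for non-partners. Genes called were 887, 956 and 1018 without control replicates 1, 2 and 3 and 882 without mutant replicate 1; these fits hold fewer samples. Pparg, Hnf4a and Nr1i2 were called in all 6. Same-numbered libraries had correlated deviations of -0.00322 to 0.0634, against -0.0652 to 0.0556 for the other pairs. The labels state no pairing, and correlations over all genes from 3 libraries per group cannot exclude one. With a replicate block 1558 genes were called, 3 receptors higher (Hnf4a, Nr1i2, Esr1), 2 lower (Pparg, Nr4a1), 3 partners and 2 non-partners. DESeq2 called 2827 genes. Nr2f1 rests on 149 control and 18.5 mutant estimated counts, so depth limits the precision of its fold.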
